A study of Mus musculus with 12 samples.

Results

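The genes described here are the activators of the circadian clock, *Bmal1*, *Npas2*, *Clock* and *Rora*, the PAR bZIP transcription factors *Dbp*, *Tef* and *Hlf* (PAR stands for a stretch rich in proline and acidic amino acids, bZIP for a basic leucine zipper), and *Nfil3*, the bZIP repressor that competes with them. They were chosen by symbol, as 8 of the 56065 genes listed in the count table, and all 8 were among the 17893 genes that passed a filter on low counts and were tested. The study examined submandibular salivary glands (SMGs) of C57BL/6J mice and of C57BL/6J-*Pou2f3*-/- mice, which lack the transcription factor needed to form tuft cells (TCs), rare chemosensory epithelial cells. Bulk RNA-sequencing was done on glands of mice aged 8 weeks, with 3 mice in each of 4 groups, namely wild-type and *Pou2f3*-/- females and wild-type and *Pou2f3*-/- males. The knockout is present in every cell of the body, so that the clock tissue of the brain and all other organs carried it as well. The hour of the day at which each gland was taken, and whether knockout and wild-type mice were littermates, are not given in the sources used here. A difference due to the knockout and a difference in collection hour or litter between the genotypes therefore cannot be told apart here.

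In the mammalian clock, BMAL1 pairs with CLOCK or its relative NPAS2, binds E-box sequences and switches on the *Per*, *Cry* and *Nr1d* genes, whose proteins then hold the activators back. The nuclear receptors NR1D1 and NR1D2 repress, and RORA activates, genes that carry a ROR element, among them *Bmal1*, *Npas2* and *Nfil3*. DBP, TEF and HLF activate genes through the D-box, NFIL3 represses through the same site, and the levels of most of these RNAs rise and fall over the day in many tissues.

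Total counts per library ranged from 47032175 to 67882207. Levels are normalised read counts, that is CPM (counts for every 1000000 counts of the library) after scaling by trimmed mean of M-values (TMM), whose factors ran from 0.625 in a female wild-type library to 1.45 in a male wild-type library, so that a count of 3, the most that a count of 0 allows, was worth 0.0399 to 0.0782 CPM. *Pou2f3* itself had 0 to 10 counts in the wild-type libraries and 0 to 3 in the knockout libraries, which is too few to check the genotype labels. Of 6 TC markers, *Gnat3* and *Il25* had 0 counts in all 12 libraries and 2 passed the filter, and their sum lay between 15.5 and 19.7 CPM in wild-type females against 18.8 and 22.1 CPM in knockout females, and between 7.8 and 9.19 CPM in wild-type males against 7.97 and 9.58 CPM in knockout males, while the summed acinar markers reached 3065 to 12903 CPM. Summed adipocyte markers reached 41.6 CPM in female wild-type replicate 3 and 32 CPM in male knockout replicate 2, against a lowest value of 1.42 CPM. In females 2 of 5 tested adipocyte markers and 1 of 2 tested skeletal muscle markers were lower in the knockout, where 19.3% of all tested genes were lower. In males 0 of these 7 markers passed, where 0.235% of all tested genes passed. Summed adipocyte markers were nevertheless 1.42 to 1.53 CPM in male wild-type and 2.66 to 32 CPM in male knockout libraries, without overlap. In females they overlapped, at 3.25 to 41.6 CPM in wild-type and 2.4 to 4.89 CPM in knockout libraries. Summed myoepithelial markers were 114 to 157 CPM in female wild-type and 87.4 to 106 CPM in female knockout libraries, without overlap. The part of these cells in the genotype differences of either sex was not tested. In tissue RNA, fewer cells of a type and less RNA per cell cannot be told apart.

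The first comparison asked how the clock activators and PAR bZIP factors differ between *Pou2f3*-/- and wild-type glands in each sex. *Bmal1* and *Npas2* were 7.31 to 11.5-fold higher in the knockout of both sexes, *Dbp* was 5.97-fold lower in females and 9.02-fold lower in males, *Tef* and *Hlf* were 2 to 2.66-fold lower, and *Clock* and *Rora* differed by at most 1.36-fold. In females 7 of the 8 genes passed an adjusted p of 0.05 (edgeR, Benjamini-Hochberg over all genes tested), 3 higher and 4 lower, where 36.9% of all tested genes passed, 17.6% higher and 19.3% lower. In males 6 of the 8 passed, 3 higher and 3 lower, where 0.235% of all tested genes, or 42 of 17893, passed, 0.101% higher and 0.134% lower. DESeq2 called 406 of the 17893 genes in males, 225 higher and 181 lower, and 6 of the 8. Ordered by p-value over all tested genes, the first 4 places in males were held by *Dbp*, *Npas2*, *Bmal1* and *Tef*, and in females *Npas2*, *Bmal1* and *Dbp* stood at places 4, 5 and 7. Wild-type and knockout libraries did not overlap for 7 of the 8 genes in females, 3 higher and 4 lower, against 49.3% of all tested genes, 25.2% higher and 24.1% lower. In males they did not overlap for 7 of the 8, 4 higher and 3 lower, against 14.5% of all tested genes, 6.51% higher and 7.95% lower.

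**Figure D1:**
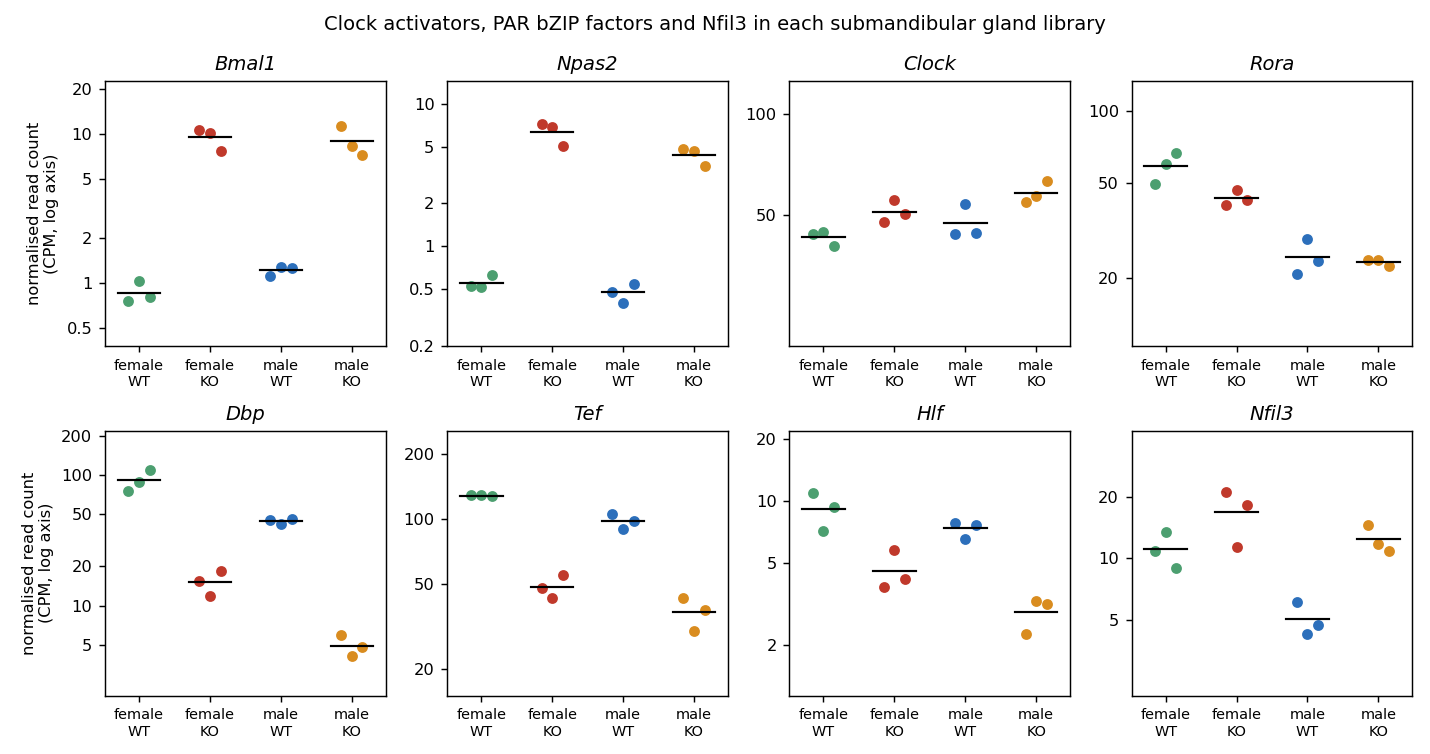
Normalised read count (CPM, log axis) of each gene in each of the 12 libraries, with 3 points per group in replicate order and a bar at the group mean; WT is wild-type and KO is *Pou2f3*-/-. *Bmal1* and *Npas2* lie at 1.29 CPM or below in every wild-type library and at 3.66 CPM or above in every knockout library, *Dbp* and *Tef* are lower in every knockout library of a sex than in its wild-type libraries, and *Nfil3* overlaps in females only.

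*Bmal1* (ENSMUSG00000055116.9, plus strand of chr7:112806152-112914735, GRCm39) encodes the partner that both CLOCK and NPAS2 need in order to bind DNA. In female wild-type glands its level was 0.759, 1.03 and 0.808 CPM in replicates 1 to 3, from 39, 46 and 31 counts. The female knockout glands had 10.7, 10.1 and 7.72 CPM, from 536, 600 and 360 counts. Every knockout value was thus more than 7 times the highest wild-type value, and the fitted log2 fold change was 3.45 (SE 0.21, 95% interval 3.00 to 3.91, edgeR adjusted p = 2e-06). Male wild-type glands had 1.12, 1.29 and 1.26 CPM and male knockout glands 11.3, 8.3 and 7.21 CPM. Again the groups lay far apart, with a log2 fold change of 2.87 (SE 0.20, 95% interval 2.44 to 3.30, edgeR adjusted p = 1.4e-05). The coefficient of variation was 16.8% in female wild-type, 16.6% in female knockout, 7.58% in male wild-type and 23.8% in male knockout glands, where the median over all tested genes was 15.4%, 14.1%, 13.9% and 14%.

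The sequence around the *Bmal1* start site is shown because *Bmal1* is known as a target of the ROR and NR1D receptors, whose genes are described below. In a window of 500 bases on either side of the annotated start of the main transcript, searched on both strands, the ROR element TAGGTCA was found once and the variant TAGGTTA once, both within an annotated exon and on the strand of the gene. The letters searched were chosen after the sequences of these genes had been looked at. TAGGTCA occurs in 6.98% of the same windows of 21757 protein-coding genes and TAGGTTA in 4.99%. Both stretches are given 5′ to 3′ from the reference genome, with the element in capitals. They lie at chr7:112806701-112806730 and chr7:112806737-112806766 of GRCm39, and the elements begin at positions 70 and 106 counted from the start site.

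*Bmal1* variant element: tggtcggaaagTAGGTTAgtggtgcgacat

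*Bmal1* ROR element: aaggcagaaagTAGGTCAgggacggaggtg

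*Npas2* (ENSMUSG00000026077.16, plus strand of chr1:39232705-39402323) encodes the CLOCK-related partner of BMAL1. Female wild-type glands had 0.525, 0.516 and 0.626 CPM, from no more than 27 counts, and female knockout glands had 7.23, 6.92 and 5.02 CPM, from at least 234 counts. The groups did not come near each other, and the log2 fold change was 3.52 (SE 0.22, 95% interval 3.06 to 3.99, edgeR adjusted p = 2e-06), an 11.5-fold difference. In males the wild-type values were 0.479, 0.398 and 0.542 CPM and the knockout values 4.83, 4.7 and 3.66 CPM. This gave a log2 fold change of 3.21 (SE 0.21, 95% interval 2.76 to 3.66, edgeR adjusted p = 1.1e-05), or 9.26-fold. None of the motifs searched was found in the window around its annotated start, nor in those of *Clock*, *Rora* and *Hlf*.

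*Clock* (ENSMUSG00000029238.12, minus strand of chr5:76342860-76452846) encodes the other partner, a histone acetyltransferase that is nearly constant over the day in many tissues. Its level was 43.7, 44.3 and 40.4 CPM in female wild-type glands and 47.5, 55.3 and 50.3 CPM in female knockout glands. Male wild-type glands had 43.7, 53.8 and 44.2 CPM and male knockout glands 54.6, 57 and 62.9 CPM. In both sexes the knockout libraries lay just above the wild-type libraries without overlap, yet the differences were small: the log2 fold change was 0.25 (SE 0.10, edgeR adjusted p = 0.072) in females and 0.30 (SE 0.10, edgeR adjusted p = 0.26) in males, so neither passed. The intervals of 0.03 to 0.48 and 0.08 to 0.52 leave out a change of the size seen for *Bmal1*. The female difference did pass under upper-quartile scaling (0.36, adjusted p = 0.015), with the 20 most abundant genes left out of the library sizes (0.49, adjusted p = 0.0023), with at least 10 counts asked of every library (0.29, adjusted p = 0.027) and without male wild-type replicate 2 (0.25, adjusted p = 0.047). Over its 12 libraries *Clock* varied less than most genes, at rank 15834 of 17893 by SD of log2 CPM, while *Npas2*, *Dbp* and *Bmal1* stood at ranks 312, 350 and 362. Exons of *Clock* overlap *Tmem165* on the opposite strand, whose log2 fold change was −0.81 (SE 0.13, edgeR adjusted p = 0.00075) in females and 0.08 (SE 0.13, adjusted p = 0.87) in males. The libraries were stranded, but how strand was set when reads were assigned is not given in the sources used here, and the part of such reads in the *Clock* values was not tested.

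*Rora* (ENSMUSG00000032238.18, plus strand of chr9:68561068-69295528) encodes the nuclear receptor that activates through the ROR element. Female wild-type glands had 49.4, 60 and 66.8 CPM and female knockout glands 40.4, 46.8 and 42.3 CPM, with no overlap. The female log2 fold change of −0.44 (SE 0.13, 95% interval −0.73 to −0.16, edgeR adjusted p = 0.018) is a 1.36-fold difference. It lost significance without female wild-type replicate 3, the library with the most adipocyte RNA (−0.38, adjusted p = 0.058), and with the 20 most abundant genes left out of the library sizes (−0.20, adjusted p = 0.15). The part of adipocyte RNA in the *Rora* difference was not tested. Male wild-type values of 20.8, 29.3 and 23.7 CPM enclosed the male knockout values of 23.9, 23.8 and 22.5 CPM. In males the log2 fold change was −0.07 (SE 0.13, 95% interval −0.36 to 0.21, edgeR adjusted p = 0.89).

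*Dbp* (ENSMUSG00000059824.13, plus strand of chr7:45354512-45359627) encodes the PAR bZIP factor with the steepest daily rhythm in many tissues and is a direct target of the activators. In female wild-type glands it reached 75.3, 88.8 and 109 CPM, from 3872 to 4165 counts. In female knockout glands it was 15.5, 11.8 and 18.4 CPM, from 705 to 860 counts. The groups were far apart, and the log2 fold change was −2.58 (SE 0.18, 95% interval −2.97 to −2.19, edgeR adjusted p = 7.2e-06). Male wild-type glands had 45.2, 42.5 and 46.4 CPM and male knockout glands 5.95, 4.09 and 4.82 CPM. With a log2 fold change of −3.17 (SE 0.19, 95% interval −3.58 to −2.77, edgeR adjusted p = 6.4e-06) *Dbp* had the smallest p-value of all 17893 genes tested in males. Exons of *Dbp* overlap *Sphk2* on the opposite strand, whose log2 fold change was 0.60 (SE 0.13, adjusted p = 0.0037) in females and −0.04 (SE 0.13, adjusted p = 0.93) in males. The part of reads from the opposite strand in the *Dbp* values was not tested.

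The 250 bases before the *Dbp* start site, chr7:45354262-45354511 of GRCm39, are shown because they hold a ROR element, in capitals, at position −189 from the start, and because the window around it holds no CACGTG, the E-box bound by the activators. That E-box occurs in 17.3% of the windows of all coding genes and, among the genes described here, in those of *Tef* and *Nfil3*. The absence of these letters from this window says nothing of sites elsewhere in the gene.

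*Dbp* upstream: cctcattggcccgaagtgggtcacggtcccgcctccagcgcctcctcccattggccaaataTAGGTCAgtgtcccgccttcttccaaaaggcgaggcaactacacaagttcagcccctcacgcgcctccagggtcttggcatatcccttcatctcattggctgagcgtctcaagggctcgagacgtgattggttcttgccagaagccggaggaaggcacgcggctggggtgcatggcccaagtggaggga

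*Tef* (ENSMUSG00000022389.16, plus strand of chr15:81686622-81711064) encodes another PAR bZIP factor, expressed in many tissues. Female wild-type libraries lay close together at 129, 129 and 128 CPM, and female knockout libraries had 47.6, 42.7 and 55 CPM. The log2 fold change was −1.41 (SE 0.13, 95% interval −1.70 to −1.12, edgeR adjusted p = 8.3e-05), a 2.65-fold difference. In males *Tef* was 106, 90.3 and 98.3 CPM in wild-type and 43, 30.1 and 37.7 CPM in knockout glands. This was a 2.66-fold difference, with a log2 fold change of −1.41 (SE 0.13, 95% interval −1.70 to −1.12, edgeR adjusted p = 0.00051), the same as in females to the second decimal. The *Tef* window held 3 E-boxes, at positions −471, −360 and −138 from the start site, more than any other window of the 8. The stretch of 250 bases with the nearest E-box in capitals, chr15:81695365-81695614 of GRCm39, is given to show it beside the *Dbp* sequence.

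*Tef* upstream: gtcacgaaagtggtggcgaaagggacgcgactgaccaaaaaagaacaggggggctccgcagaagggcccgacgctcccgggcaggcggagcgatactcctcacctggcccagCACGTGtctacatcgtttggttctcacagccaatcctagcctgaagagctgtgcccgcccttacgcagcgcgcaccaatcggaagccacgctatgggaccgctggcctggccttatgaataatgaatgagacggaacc

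*Hlf* (ENSMUSG00000003949.17, minus strand of chr11:90227221-90281761) encodes the least abundant of the PAR bZIP factors here. Female wild-type glands had 11, 7.14 and 9.41 CPM and female knockout glands 3.8, 5.79 and 4.16 CPM. The groups stayed apart, though by a narrow gap, and the difference was 2-fold (SE 0.20 on the log2 scale, 95% interval −1.44 to −0.57, edgeR adjusted p = 0.0023). In males the values were 7.85, 6.56 and 7.69 CPM against 2.26, 3.28 and 3.17 CPM. The male log2 fold change was −1.34 (SE 0.20, 95% interval −1.78 to −0.90, edgeR adjusted p = 0.016), or 2.54-fold lower. The male call was lost when male knockout replicate 2 (adjusted p = 0.069), male knockout replicate 3 (0.073), male wild-type replicate 1 (0.099) or male wild-type replicate 3 (0.076) was left out, with log2 fold changes of −1.44 to −1.29 in these settings.

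*Nfil3* (ENSMUSG00000056749.8, minus strand of chr13:53121245-53137010) encodes the repressor that binds the D-box in place of the PAR bZIP factors. In female wild-type glands it was at 10.8, 13.4 and 8.94 CPM, and in female knockout glands at 21, 11.3 and 18.2 CPM. Knockout replicate 2 fell within the wild-type range, so the groups overlapped. The female log2 fold change was 0.60 (SE 0.22, 95% interval 0.13 to 1.08, edgeR adjusted p = 0.047), which is at the threshold. It passed in 11 of 22 settings, and its adjusted p rose to 0.25 without female knockout replicate 1 (log2 fold change 0.37), 0.16 without female knockout replicate 3, 0.12 without female wild-type replicate 1 and 0.2 without female wild-type replicate 3, with values of 0.052 to 0.061 when male wild-type replicate 2 or 3 or male knockout replicate 2 or 3 was left out. It was also lost under RLE scaling (0.057), in a fit of the female groups alone (0.076) and by limma on the authors' normalized table (0.078). In males wild-type glands had 6.1, 4.26 and 4.74 CPM and knockout glands 14.6, 11.7 and 10.9 CPM. These groups were well apart, with a log2 fold change of 1.30 (SE 0.22, 95% interval 0.81 to 1.79, edgeR adjusted p = 0.037), a 2.46-fold difference. The male call was lost without any of male wild-type replicates 1, 2 or 3 (adjusted p = 0.083, 0.13 and 0.17), male knockout replicates 2 or 3 (0.13 and 0.092) or female knockout replicate 3 (0.056), and with the 20 most abundant genes left out of the library sizes (0.062), while the log2 fold change stayed between 1.17 and 1.46 with any library left out.

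Like *Bmal1*, *Nfil3* carries a ROR element in an exon, here on the strand opposite to the gene. It is printed along the strand of the gene, at chr13:53135069-53135098 of GRCm39, so that the capitals read TGACCTA, the reverse complement of TAGGTCA. Its window also held an E-box, at position −408. In all, 3 of the 8 windows held TAGGTCA, those of *Bmal1*, *Dbp* and *Nfil3*, against 6.98% of the windows of all coding genes. These letters were chosen after the sequences had been looked at, so the count is no evidence of enrichment. The D-box TTANGTAA was in 0 of the 8 windows and in 7.35% of the windows of all coding genes. Matching letters in a window are a description and not a measure of binding.

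*Nfil3* ROR element: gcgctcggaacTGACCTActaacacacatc

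**Figure D2:**
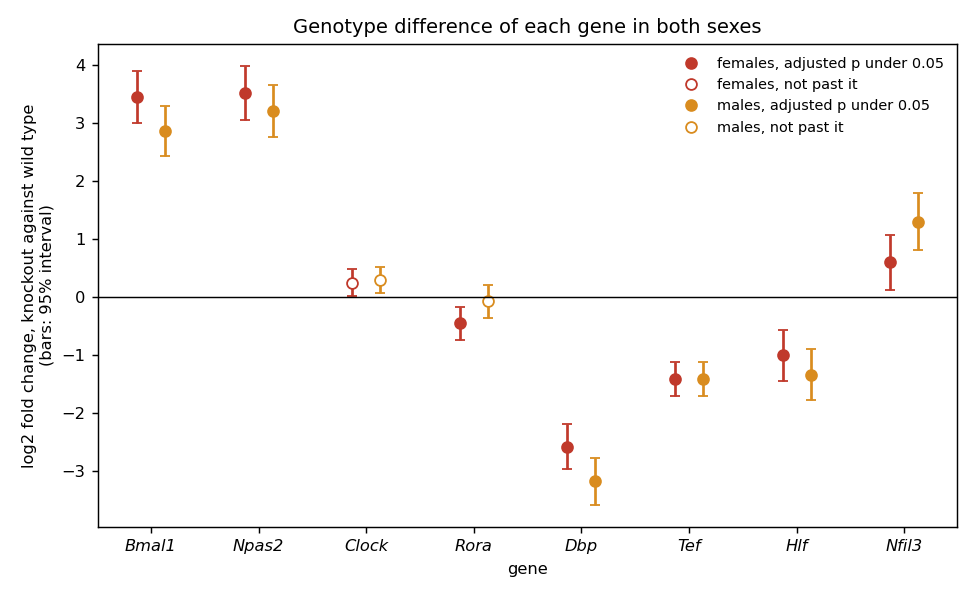
Log2 fold change of each gene, knockout against wild-type, in females and males, with 95% intervals of the edgeR fit; filled points passed an adjusted p of 0.05. *Bmal1* and *Npas2* stand at 2.87 to 3.52 in both sexes, *Dbp* at −2.58 and −3.17, and the intervals of *Tef* coincide.

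Whether the genotype difference itself differed between the sexes was then tested with an interaction term. It passed for 0 of the 8 genes by edgeR and for 0 by DESeq2, where 25.7% of all tested genes passed by edgeR, and at an unadjusted p of 0.05 the count was 2. Over all 17893 genes, 5539 passed by DESeq2 and 7232 had an unadjusted p under 0.05. The interaction of *Tef* was 0.00 on the log2 scale with an interval of −0.40 to 0.40, and that of *Clock* was 0.05 (−0.27 to 0.36), though limma on the authors' normalized table gave −0.47 (adjusted p = 0.14) for *Tef*. For *Dbp* the interaction, male minus female log2 fold change, was −0.60 (SE 0.25, 95% interval −1.13 to −0.07, unadjusted p = 0.031, edgeR adjusted p = 0.088). For *Nfil3* it was 0.70 (SE 0.31, 95% interval 0.02 to 1.37, unadjusted p = 0.045, edgeR adjusted p = 0.11). *Bmal1* had an interaction of −0.58 (−1.19 to 0.02), and its interval and those of *Npas2* (−0.95 to 0.32), *Hlf* (−0.96 to 0.27) and *Rora* (−0.03 to 0.77) all contain 0 and are wide enough to hold a difference of more than 1.5-fold. The *Dbp* interaction passed with the 20 most abundant genes left out of the library sizes (−0.80, adjusted p = 0.03), without female knockout replicate 2 (−0.67, 0.047) and without male knockout replicate 1 (−0.74, 0.046), that of *Bmal1* without male knockout replicate 1 (−0.78, 0.041), and that of *Rora* without female wild-type replicate 1 (0.58, 0.024) or male wild-type replicate 2 (0.52, 0.037).

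Ratios of the counts of 2 genes within a library do not depend on how libraries are scaled, and 10 such ratios were computed as descriptions, without a test. *Bmal1* over *Dbp*, an activator over a gene it drives, was 0.0102, 0.0117 and 0.00756 in the female wild-type libraries and 0.693, 0.851 and 0.419 in the female knockout libraries. In male wild-type libraries it was 0.0249, 0.0306 and 0.0272, and in male knockout libraries 1.9, 2.03 and 1.49. The ratio thus rose by 6.02 on the log2 scale in females and by 6.03 in males, or 64.8 and 65.3-fold, although the starting ratios of the sexes differed, with group means of −6.69 ± 0.32 in female and −5.19 ± 0.15 in male wild-type libraries (SD, n = 3). Male knockout libraries were the only ones in which *Bmal1* had more counts than *Dbp*. Per kilobase of the main annotated transcript, *Dbp* was above *Bmal1* in these libraries too. The values were 3.24, 2.22 and 2.63 for *Dbp* against 2.65, 1.95 and 1.69 CPM per kilobase for *Bmal1*.

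**Figure D3:**
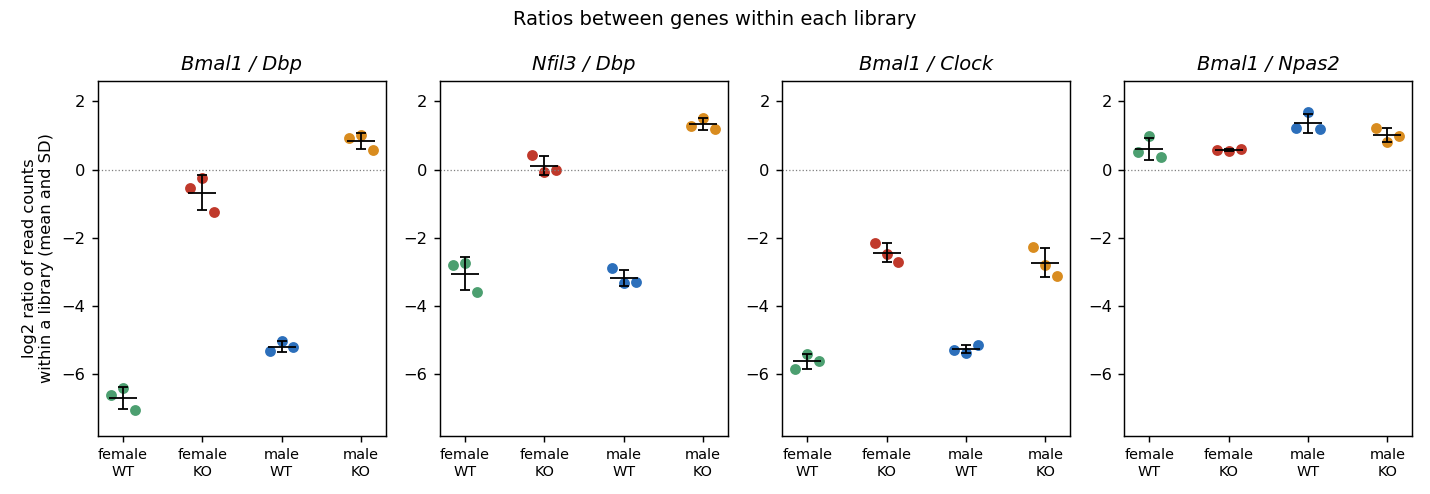
Log2 ratio of the counts of 2 genes within each library, by group, with the group mean and SD (n = 3). WT is wild-type and KO is *Pou2f3*-/-, and the dotted line at 0 marks equal counts, not corrected for transcript length. *Bmal1* over *Dbp* goes from between −7.05 and −5.03 in wild-type libraries to between −1.25 and 1.02 in knockout libraries, while *Bmal1* over *Npas2* stays between 0.36 and 1.68.

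Among the activators, *Bmal1* over *Clock* rose from a range of 0.0176 to 0.0235 in female wild-type libraries to 0.154 to 0.226 in female knockout libraries, and from 0.0242 to 0.0286 to 0.115 to 0.207 in males. *Npas2* over *Clock* rose 9.4-fold in females and 7.43-fold in males. *Bmal1* over *Npas2* did not separate the genotypes, with a difference of −0.05 on the log2 scale in females and −0.36 in males and overlapping groups in both sexes. Its group means were 0.62 ± 0.32 in female wild-type, 0.58 ± 0.04 in female knockout, 1.37 ± 0.28 in male wild-type and 1.01 ± 0.21 in male knockout libraries (log2, SD, n = 3). The female value moved to −0.62 in the authors' normalized table and to 0.13 without female wild-type replicate 2.

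On the PAR bZIP side, the ratio of *Dbp* to *Tef* or *Hlf* was lower in every knockout library than in the wild-type libraries of its sex. *Dbp* over *Tef* was 0.586, 0.691 and 0.846 in female wild-type and 0.325, 0.277 and 0.335 in female knockout libraries. In males it was 0.427, 0.471 and 0.472 in wild-type and 0.139, 0.136 and 0.128 in knockout libraries. *Tef* over *Hlf* overlapped between the genotypes in both sexes, with differences of −0.41 in females and −0.07 in males. *Nfil3* over *Dbp*, repressor over activator, went from 0.144, 0.151 and 0.0825 to 1.36, 0.956 and 0.99 in females, and from 0.135, 0.1 and 0.102 to 2.45, 2.86 and 2.27 in males. This was an 8.95-fold rise in females and a 22.5-fold rise in males. *Nfil3* over *Tef* rose 3.98-fold and 6.63-fold, without overlap in either sex, including in females, where *Nfil3* alone overlapped.

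Levels of different genes can be compared only per length, taken here as CPM per kilobase of the main annotated transcript. Annotated transcripts of a gene differ in length, from 508 to 11028 bases for *Rora* and from 248 to 5038 for *Tef*. Which of them these glands use was not tested, and the SDs cover only the spread between mice. In female wild-type glands *Dbp* led with 49.5 ± 9.11, followed by *Tef* with 30.3 ± 0.0418, *Rora* with 5.33 ± 0.796, *Nfil3* with 4.84 ± 0.984, *Clock* with 4.32 ± 0.213, *Hlf* with 1.58 ± 0.336, *Bmal1* with 0.203 ± 0.0342 and *Npas2* with 0.129 ± 0.0142 (SD, n = 3). *Nfil3* overlapped with its neighbours *Rora* and *Clock* over the 3 libraries, and the other neighbours did not overlap. In female knockout glands the order became *Tef* with 11.4 ± 1.46, *Dbp* with 8.3 ± 1.8, *Nfil3* with 7.38 ± 2.18, *Clock* with 5.15 ± 0.402, *Rora* with 3.91 ± 0.296, *Bmal1* with 2.23 ± 0.369, *Npas2* with 1.49 ± 0.279 and *Hlf* with 0.787 ± 0.183, where *Nfil3* overlapped with its neighbours *Dbp* and *Clock*. The span from the highest to the lowest of the 8 genes was therefore far narrower in the knockout.

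In males *Dbp* and *Tef* were level in wild-type glands, at 24.3 ± 1.09 and 23.1 ± 1.83 CPM per kilobase, and *Clock* at 4.77 ± 0.573 stood above *Rora* at 2.23 ± 0.39 and *Nfil3* at 2.20 ± 0.419. In male knockout glands *Tef* with 8.70 ± 1.52 was followed by *Clock* with 5.87 ± 0.433 and *Nfil3* with 5.43 ± 0.838, which overlapped. *Dbp* with 2.70 ± 0.512, *Rora* with 2.12 ± 0.07 and *Bmal1* with 2.10 ± 0.498 came next, of which *Bmal1* overlapped with both. *Npas2* with 1.02 ± 0.149 and *Hlf* with 0.498 ± 0.0961 were the lowest.

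Put as shares of the per-length sum of *Dbp*, *Tef* and *Hlf*, *Dbp* made up 60.5 ± 4.49% in female wild-type and 40.2 ± 2.98% in female knockout glands, and 50 ± 1.42% and 22.6 ± 0.905% in males. *Tef* rose from 37.5 ± 4.1% to 55.8 ± 1.5% of the sum in females and from 47.4 ± 1.38% to 73.0 ± 1.07% in males, although its own level fell, and *Hlf* stayed below 6% in every library. *Nfil3* amounted to 6.04 ± 1.57% of the PAR bZIP sum in female wild-type, 35.8 ± 8.67% in female knockout, 4.51 ± 0.648% in male wild-type and 46.0 ± 6.12% in male knockout glands. *Npas2* was 2.92 ± 0.459% of the sum of *Npas2* and *Clock* in female wild-type and 22.3 ± 3.65% in female knockout glands, and 2.30 ± 0.556% and 14.9 ± 2.71% in males, so that *Clock* remained the larger partner in every library. *Bmal1* was 4.56 ± 0.678% of that partner sum in female wild-type and 33.5 ± 4.94% in female knockout glands, and 5.90 ± 0.476% and 30.6 ± 8.48% in males. These are RNA levels, and the proteins were not measured in the data used here.

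**Figure D4:**
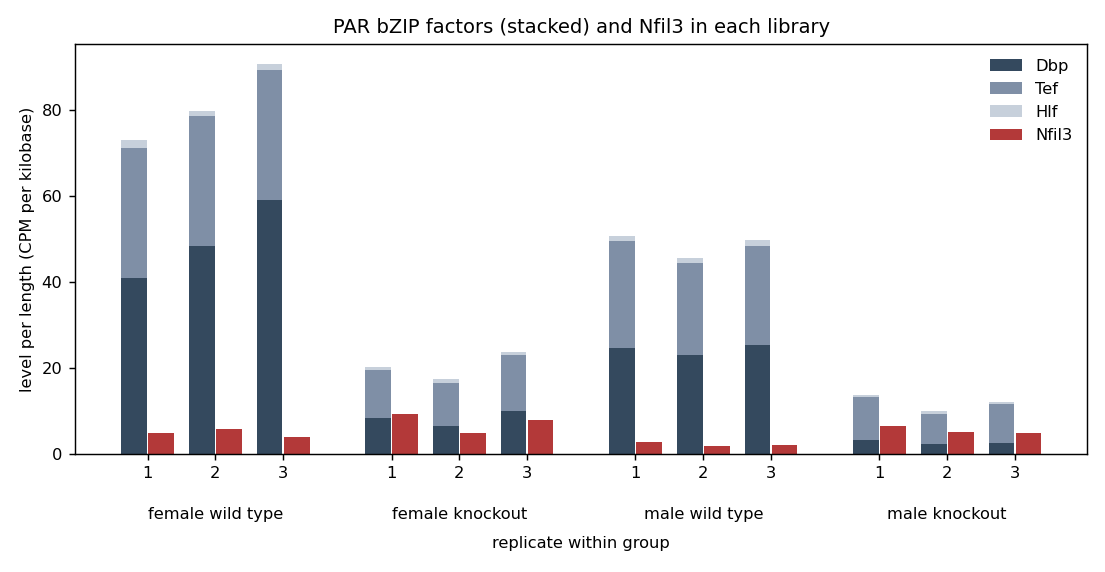
Level per length (CPM per kilobase of the main transcript) of *Dbp*, *Tef* and *Hlf*, stacked, beside that of *Nfil3*, in each library by group and replicate. The stacks shrink in the knockout of both sexes and the *Nfil3* bar reaches 28.3 to 51.9% of the stack in the knockout libraries, against 4.1 to 7.35% in the wild-type libraries.

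Male and female glands of the same genotype were compared next. Among wild-type glands, 4 of the 8 genes were lower in males and 0 were higher, where 36.5% of all tested genes passed, 16.0% lower and 20.5% higher. The sexes did not overlap for 5 of the 8, 4 lower and 1 higher, against 47.6% of all tested genes, 20.9% lower and 26.7% higher. *Rora* was 2.39-fold lower (log2 fold change −1.26, SE 0.13, edgeR adjusted p = 1.2e-05), *Nfil3* 2.20-fold lower (−1.14, SE 0.23, adjusted p = 0.0017), *Dbp* 2.03-fold lower (−1.02, SE 0.17, adjusted p = 0.00048) and *Tef* 1.31-fold lower (−0.39, SE 0.13, adjusted p = 0.035). *Rora*, which encodes the activating receptor, did not overlap between the sexes in either genotype. The *Tef* call was lost without female wild-type replicate 2 or 3 or male wild-type replicate 2 or 3, with adjusted p-values of 0.057 to 0.098, and in the authors' table (0.25). *Bmal1* was 0.50 higher on the log2 scale in male wild-type glands (SE 0.22, adjusted p = 0.091), without overlap.

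Among knockout glands 5 of the 8 genes were lower in males and 0 higher, where 43.5% of all tested genes passed, 20.3% lower and 23.2% higher. The sexes did not overlap for 4 of the 8, all lower, against 54.8% of all tested genes, 27.5% lower and 27.3% higher, a share close to that background. *Dbp* was 3.07-fold lower (log2 fold change −1.62, SE 0.18, edgeR adjusted p = 1.9e-05), *Rora* 1.85-fold lower (−0.88, SE 0.13, adjusted p = 0.00018) and *Hlf* 1.58-fold lower (−0.66, SE 0.21, adjusted p = 0.02). *Npas2* was 1.45-fold lower (−0.54, SE 0.18, adjusted p = 0.029) and *Tef* 1.31-fold lower (−0.39, SE 0.13, adjusted p = 0.03), and these 2 calls were lost together without female knockout replicate 1, male knockout replicate 2 or 3, or female wild-type replicate 2. *Npas2* also lost its call without female knockout replicate 2, *Tef* without female knockout replicate 3 or female wild-type replicate 1 or 3, and *Hlf* without female knockout replicate 2 or male knockout replicate 1. The *Npas2* call was lost as well with no low-count filter (0.066) and by limma on the authors' normalized table (0.13). *Nfil3* passed under upper-quartile scaling (−0.60, adjusted p = 0.041), with the 20 most abundant genes left out of the library sizes (−0.77, 0.018) and without female knockout replicate 2 (−0.61, 0.023), and *Clock* passed by limma (0.33, 0.028) and without female knockout replicate 2 (0.31, 0.043). *Bmal1* differed by −0.09 (SE 0.18, 95% interval −0.47 to 0.30, adjusted p = 0.72), and by −0.42 (adjusted p = 0.067) with the 20 most abundant genes left out of the library sizes. Markers of the granular convoluted tubule, a duct segment larger in males, summed to 4370 to 9116 CPM in females and 51076 to 92288 CPM in males. Myoepithelial markers summed to 87.4 to 157 CPM in females and 253 to 412 CPM in males, and duct markers to 191 to 279 CPM and 319 to 391 CPM, also without overlap. Summed acinar markers were lower in male knockout libraries, at 3065 to 4495 CPM against 4836 to 11132 CPM in females. Between the wild-type sexes they overlapped, at 8353 to 12903 CPM in females and 4375 to 12246 CPM in males. Adipocyte markers were lower in male wild-type libraries, at 1.42 to 1.53 CPM against 3.25 to 41.6 CPM in females, and overlapped between the knockout sexes. The part of these cell types in the sex contrasts was not tested.

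The clock genes outside these 8 were read from lists of repressors, output genes, and kinases and ubiquitin ligases. The lists were drawn up with earlier results of these data known, so their counts are no independent evidence of direction. Of 10 repressors, 9 fell in females and 0 rose (36.9% of all genes passed), with a median log2 fold change of −1.12 against 0.03 over all genes tested, and 6 fell in males and 0 rose (0.235% passed), with a median of −0.77 against −0.04. *Ciart*, a repressor of CLOCK and BMAL1, was 7.54-fold lower in females (edgeR adjusted p = 0.00027) and 8.61-fold lower in males (adjusted p = 0.0041). *Bhlhe41*, which competes for the E-box, had the smallest p-value of all genes in females, with a log2 fold change of −1.84 (SE 0.11, adjusted p = 2e-06), and had −0.85 in males (SE 0.11, adjusted p = 0.0041). *Per3* had log2 fold changes of −0.91 (SE 0.19, adjusted p = 0.0034) in females and −2.05 (SE 0.20, adjusted p = 0.00058) in males, and *Per2* had −1.71 (SE 0.32, adjusted p = 0.0015) and −1.75 (SE 0.32, adjusted p = 0.046). *Nr1d1* and *Nr1d2*, the receptors that repress through the ROR element, had −0.73 (SE 0.15, adjusted p = 0.0027) and −0.94 (SE 0.10, adjusted p = 0.00015) in females and −0.87 (SE 0.15, adjusted p = 0.037) and −0.70 (SE 0.10, adjusted p = 0.013) in males. *Per1* alone among the repressors did not pass in either sex, with log2 fold changes of 0.59 (SE 0.25, adjusted p = 0.084) in females and −0.11 (SE 0.25, adjusted p = 0.91) in males, though it passed in females with a replicate block and without female knockout replicate 2. By DESeq2, which called 406 of 17893 genes, the male count was 7. By edgeR it was 3, *Per3*, *Bhlhe41* and *Ciart*, without male knockout replicate 2, male wild-type replicate 1 or male wild-type replicate 3. It was 4 without female knockout replicate 1 or female wild-type replicate 3, where *Nr1d1* and *Per2* were lost, and without male knockout replicate 3, where *Nr1d1* and *Nr1d2* were lost. *Per2* was lost besides without female knockout replicate 2 or 3 or female wild-type replicate 2, under upper-quartile scaling and with a replicate block, and *Nr1d1* without male wild-type replicate 2 and under RLE scaling. The interaction passed for 4 of the 10 repressors, where 25.7% of all tested genes passed. It was above 0 for *Cry1* (1.1, SE 0.27, adjusted p = 0.013), *Bhlhe40* (1.17, SE 0.19, adjusted p = 0.0036) and *Bhlhe41* (1.00, SE 0.15, adjusted p = 0.0031) and below 0 for *Per3* (−1.14, SE 0.28, adjusted p = 0.013).

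Of 7 output genes, 6 fell in females and 0 rose, where 36.9% of all tested genes passed and 19.3% were lower, with a median of −1.17. *Usp2*, a deubiquitinase gene driven by the clock, was 4.87-fold lower (edgeR adjusted p = 2e-06) and *Tspan4* 3.73-fold lower (adjusted p = 1.1e-05). In males 3 fell, where 0.235% of all tested genes passed, namely *Tspan4* (log2 fold change −1.19, SE 0.14, adjusted p = 0.0031), *Usp2* (−0.82, SE 0.13, adjusted p = 0.023) and *Alas1* (−0.71, SE 0.12, adjusted p = 0.03), with a median of −0.37. Only *Tspan4* remained without male knockout replicate 2, female wild-type replicate 3 or any of male wild-type replicates 1, 2 and 3. *Alas1* was also lost with a replicate block and without female or male knockout replicate 3, and *Usp2* without female knockout replicate 1, while *Tsc22d3* passed besides by DESeq2 and without male knockout replicate 1. For 6 of these 7 genes the interaction passed, where 25.7% of all tested genes did, the male log2 fold change being less negative or, for *Nampt* (0.15, adjusted p = 0.79) and *Tsc22d3* (0.74, adjusted p = 0.17), above 0, and the count was 3 without male wild-type replicate 1 or 3. Of 9 kinases and ubiquitin ligases that set the stability of PER and CRY, 6 passed in females, *Csnk1e* and *Btrc* higher and *Fbxw11*, *Csnk2a1*, *Gsk3b* and *Csnk1a1* lower, where 36.9% of all tested genes passed, with a median of −0.13. *Csnk1a1* was lost without female wild-type replicate 3. In males 0 of the 9 passed by edgeR, where 0.235% of all genes did, 0 by DESeq2 and 0 at an unadjusted p of 0.05, where 2056 of all 17893 genes had one. The interaction passed for 4 of the 9, *Fbxw11* and *Csnk2a1* above 0 and *Csnk1e* and *Btrc* below 0, where 25.7% of all tested genes passed. This count ran from 3 to 6 with single libraries left out.

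**Figure D5:**
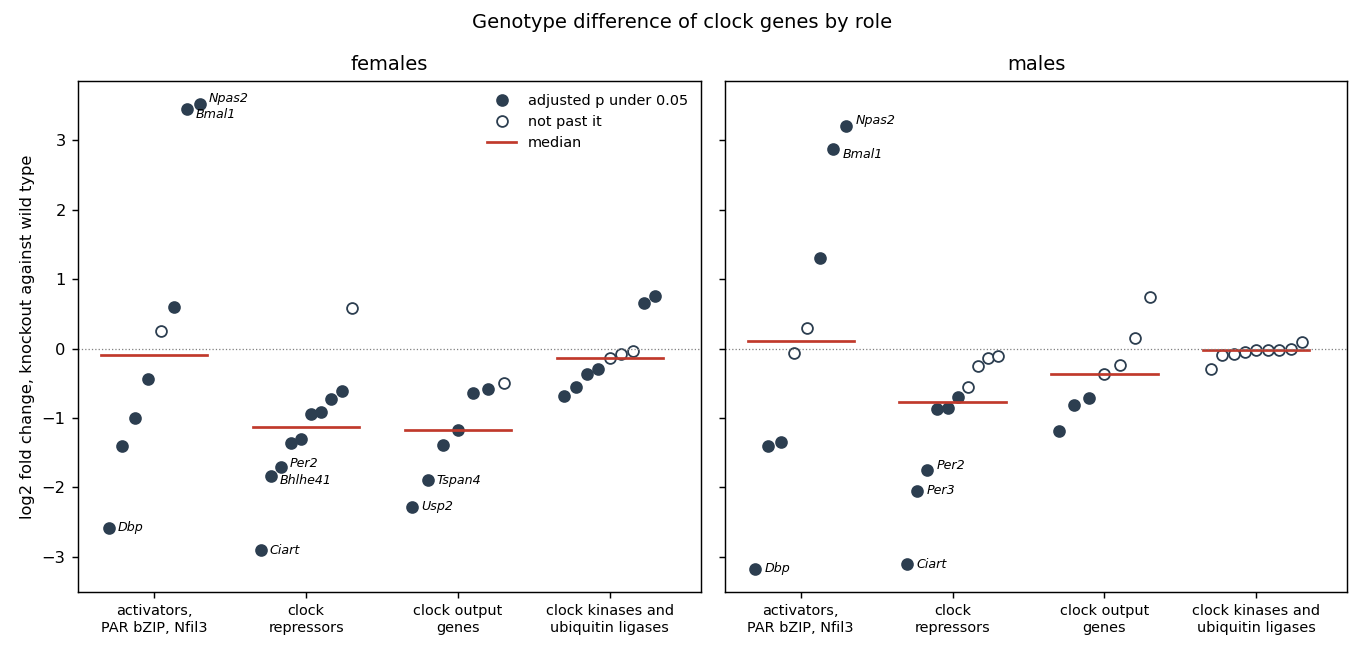
Log2 fold change, knockout against wild-type, of the genes described here and of the other clock lists in females and males; each point is a gene, filled where the edgeR adjusted p was under 0.05, and the red line is the list median. Repressors sit mostly below 0 in both sexes, with medians of −1.12 and −0.77, and kinases and ubiquitin ligases lie close to 0 in males.

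The genes whose pattern over the 12 libraries was most like those of *Bmal1* and *Dbp* were found among all tested genes other than the 8 described here by the root mean square difference of log2 CPM values, each centred on its own mean. Closest to *Dbp* was *Ciart*, at 0.41, well ahead of *Tspan4* (0.84), *Per3* (0.85), *Smpdl3b* (0.86) and *Nek10* (0.92). *Smpdl3b*, on none of the clock lists, had a log2 fold change of −1.59 (SE 0.14, edgeR adjusted p = 4.3e-05) in females and −0.99 (SE 0.14, adjusted p = 0.012) in males. *Nek10* had −1.01 (SE 0.26, adjusted p = 0.0085) and −1.25 (SE 0.27, adjusted p = 0.098). Those most like *Bmal1* were *Gm12695* (0.79), *Col5a3* (0.88), *Gm5970* (0.90), *Gm64819* (0.91) and *Gm20683* (0.92). Of these, *Col5a3*, a collagen gene, passed in both sexes, with 1.58 (SE 0.20, adjusted p = 0.00028) in females and 1.81 (SE 0.21, adjusted p = 0.0024) in males. The other 4 passed in females and did not pass in males, with male adjusted p-values of 0.26 to 0.54. Being alike over 12 libraries in 4 groups is a description of these libraries.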

How the data were processed

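Bulk RNA-sequencing libraries of 12 SMGs were analysed. The labels call the molecule polyA RNA, whereas the extraction protocol has ribosomal RNA removed from total RNA before stranded library preparation. The authors estimated counts per gene with Salmon (1.10.1, per the submitters' processing notes) and Gencode M35 transcripts on GRCm39, and deposited these estimated counts. Their second deposited table holds a normalized signal, the counts divided by factors that vary by gene and library and whose making is not given in the sources used here; it served as an alternative. Columns were assigned to mice by library name.

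Estimated counts were rounded and analysed with edgeR 4.0.16 in R 4.3.3: TMM scaling, filterByExpr, a quasi-likelihood fit with 1 mean per group over all 12 libraries, and Benjamini-Hochberg adjustment within each contrast (threshold 0.05). The study used DESeq2, which is an alternative here (1.42.0). Standard errors are the log2 fold change over the root of F; intervals are at 95%. Ratios added 0.5 to each count, and per-length levels used the main transcript of Gencode M39, which held 55563 of 56065 identifiers. log2 CPM used a prior count of 2. The code was tested on simulated data. The limit set by a count of 0 covers counting error only, and p-values measure the spread between these mice.

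The genes, the lists and the tests were chosen with earlier results of these data known. All 8 genes, the other clock genes, *Pou2f3*, and the 5 genes most like *Bmal1* and like *Dbp* are named, and 1 list of clock genes is not reported here. *Sphk2*, *Tmem165*, *Gnat3* and *Il25* were named besides. Sequences are from the GRCm39 genome and Gencode M39 start sites. Alternatives were RLE and upper-quartile scaling, library sizes without the 20 most abundant genes, leaving out the low-count filter or asking for 10 counts or more in all libraries, a fit of only the groups being compared, DESeq2, limma 3.58.1 on log2(signal + 1), a replicate block and each library left out in turn. Repeat libraries were sought by chi-square, and none agreed within sampling noise.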

Additional observations from a re-analysis of the deposited data

How the results depend on the processing

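*Bmal1*, *Npas2*, *Dbp* and *Tef* passed in 22 of 22 settings in both sexes, with log2 fold changes in females of 3.30 to 3.70, 3.38 to 3.95, −2.81 to −2.33 and −1.56 to −1.13. With single libraries left out, the number of the 8 genes passing was 5 to 7 in females, 4 to 6 in males, 0 to 2 for the interaction, 3 to 4 between wild-type sexes and 3 to 5 between knockout sexes. The interaction count became 1 with the 20 most abundant genes left out of the library sizes, a scaling that moved the median of all genes to 0.27 in females, −0.22 for the interaction and −0.35 between knockout sexes, while upper-quartile scaling moved these to 0.13, −0.11 and −0.18. The cause was not tested. Over all genes, the 42 calls in males became 406 by DESeq2 and 389 with no low-count filter. In the authors' normalized table the log2 ratio change was 3.77 for *Npas2* over *Clock* and −0.62 for *Bmal1* over *Npas2* in females, 1.63 and 2.96 for *Nfil3* over *Tef* and −1.68 and −1.48 for *Dbp* over *Tef* in females and males, a table whose factors vary between genes. With libraries left out, *Bmal1* over *Npas2* ran from −0.18 to 0.13 in females and *Tef* over *Hlf* from −0.35 to 0.17 in males, so neither has a settled sign. *Clock* between the knockout sexes changed sign with the 20 most abundant genes left out of the library sizes (−0.15), and was 0.33 by limma on the authors' normalized table.

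The labels do not tie a replicate number to a shared litter or day, so the numbers were not taken as a pairing, and deviations of same-numbered libraries correlated between −0.135 and 0.0904. With a replicate block the counts of the 8 genes passing were again 7 and 6 in females and males, 0 for the interaction, and 4 and 5 between the sexes. With 3 mice a group, *Bmal1* and *Npas2* in wild-type glands rest on 23 to 91 counts per library, and smaller changes such as those of *Clock* and *Nfil3* are at the edge of what these data can show.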
